A study of Mus musculus with 3 samples.

Results

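The genes described here were 10 genes of antigen presentation by major histocompatibility complex (MHC) class II, chosen by name from the 32886 genes of the deposited count table: H2-Aa, H2-Ab1, H2-Eb1, Cd74, Ciita, H2-DMa, H2-DMb1, H2-DMb2, H2-Oa and H2-Ob. Their levels were followed over all clusters of immune cells and over the renal compartments. Kidneys of wild-type, untreated male C57BL/6J mice, 10 weeks old, had been dissected into the cortex, the outer (OM) and the inner medulla (IM), and CD45+ cells were sorted from each, so that all groups shared genotype, strain, sex, age and treatment and differed in compartment alone. The table held 20266 cells in 23 clusters named by the authors, and the cells came from 3 facilities, Aachen, Bonn and Hamburg, which served as the replicates and gave 9 libraries with the 3 compartments. The number of mice behind each library is not given in the sources used here. The p-values of the main fits therefore measured how far the compartment differences varied between facilities, which may be technical.

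MHC class II molecules are pairs of an alpha and a beta chain on the surface of antigen-presenting cells, where they show peptides of engulfed proteins to CD4+ T cells. The invariant chain Cd74 guards the groove of new pairs on their way through the cell, H2-DM removes the last piece of the invariant chain and helps to load peptides, and H2-O restrains H2-DM. Ciita is the coactivator that switches on the class II promoters by joining factors bound to short shared boxes, among them the X box and the Y box.

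Except for Ciita on chromosome 16 and Cd74, the members lay together on chromosome 17 in the mm10 annotation of GENCODE vM21: H2-Oa at chr17:34092340-34095234, H2-DMa at chr17:34119541-34139101, H2-DMb2 at chr17:34143307-34151555, H2-DMb1 at chr17:34153072-34160230, H2-Ob at chr17:34238903-34254414, H2-Ab1 at chr17:34257689-34269419, H2-Aa at chr17:34282744-34287823 on the minus strand and H2-Eb1 at chr17:34305867-34316674. Ciita lay at chr16:10480059-10528418. H2-DMb1 and H2-DMb2 both encode the beta chain of H2-DM and are neighbours. Of the 451 windows of 50 bases in the last 500 bases of the longest H2-DMb1 transcript, 92 (20.4%) also occurred in a transcript of H2-DMb2, so that reads from these windows could not be told apart. Of the H2-DMb2 windows, 62 (13.7%) occurred in other genes. No such window of H2-Aa, H2-Ab1, H2-Eb1, Ciita, H2-DMa, H2-Oa or H2-Ob occurred in another gene.

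The 200 bases before the annotated start (RefSeq, GRCm38.p6) are shown for H2-Aa, as a classical chain, for the H2-DM beta chain pair, whose levels parted between cell types, and for H2-Oa. H2-Oa was the only member called between compartments in the main fits, and that call, given below, was not stable. Capitals mark the Y box core GATTGG, the X2-like repeat TGATGATG and the cyclic AMP response element TGACGTCA, searched on both strands and chosen after the sequences were seen. The RefSeq and GENCODE starts of H2-DMb1, H2-DMb2 and H2-Oa differ, so that the H2-DMb2 window lies whole, and the H2-DMb1 and H2-Oa windows in part, within the GENCODE gene.
H2-Aa, chr17:34287824-34288023, minus strand: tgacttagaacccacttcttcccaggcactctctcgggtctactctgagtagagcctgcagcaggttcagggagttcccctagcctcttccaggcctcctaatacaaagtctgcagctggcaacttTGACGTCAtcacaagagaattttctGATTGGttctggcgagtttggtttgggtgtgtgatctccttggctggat
H2-DMb1, chr17:34152991-34153190, plus strand: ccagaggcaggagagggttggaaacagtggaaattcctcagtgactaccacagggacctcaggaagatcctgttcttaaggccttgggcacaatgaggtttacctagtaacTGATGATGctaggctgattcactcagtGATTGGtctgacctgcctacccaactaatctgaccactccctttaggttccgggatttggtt
H2-DMb2, chr17:34145049-34145248, plus strand: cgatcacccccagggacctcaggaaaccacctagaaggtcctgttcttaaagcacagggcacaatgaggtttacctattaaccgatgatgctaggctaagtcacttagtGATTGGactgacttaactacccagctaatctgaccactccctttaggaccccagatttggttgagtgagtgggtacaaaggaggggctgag
H2-Oa, chr17:34092179-34092378, plus strand: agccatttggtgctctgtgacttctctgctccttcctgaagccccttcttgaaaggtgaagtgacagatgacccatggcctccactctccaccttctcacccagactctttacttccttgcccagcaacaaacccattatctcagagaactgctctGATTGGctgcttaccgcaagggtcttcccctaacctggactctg

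A start was found for 7 of the 10 members, and none for H2-Ab1, Ciita and Cd74. The GATTGG core began 49 bases before the start in H2-Aa, 62 in H2-DMb1, 91 in H2-DMb2 and 44 in H2-Oa, each on the strand of the gene, and GATTGG was also held by the windows of H2-Eb1 and H2-Ob. H2-DMa has 2 annotated starts, of which one window held no GATTGG and the other held it 199 bases before the start. It occurred in 12.9% of the 32851 windows of the same length in the table of starts. TGATGATG stood before H2-DMb1 and H2-Eb1 and in 0.977% of all windows, and TGACGTCA before H2-Aa and in 1.47%. The H2-DMb1 and H2-DMb2 windows matched at 147 of 229 aligned positions (64.2%). A match of letters describes the window and does not show a bound factor.

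Libraries differed in depth. They held 2122809 to 15267126 unique molecular identifiers (UMIs, each marking 1 captured RNA molecule), and library medians per cell were 744 to 1270 in the Aachen cells, against 2802 to 3505 for the other facilities. Aachen used an earlier version of the 10x kit than the other facilities, so that facility and kit cannot be told apart. Values were whole in Aachen and Bonn, but 99.9% of the Hamburg values above 0 were not, most of them lying within 0.2 of a whole number. Barcodes shared by cells of the same facility numbered 18 (Aachen), 13 (Bonn) and 0 (Hamburg). Levels are given as UMIs per 10000 UMIs of the same cells, as mean ± SD over the facilities. A UMI counts 1 molecule whatever its length, although capture may differ between genes. The clusters had been made from the same cells and H2-Aa was among the authors' macrophage markers, which is why differences between clusters are described without a test.

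The marker lists separated resident macrophages from T cells. The 8 macrophage markers summed to 184 to 270 UMIs per 10000 in the resident macrophages of the 9 libraries (5367 cells of Macrophage_1, Macrophage_2, Macrophage_3 and Isg+_Macrophage), against 0.501 to 23.0 in T cells. T cell markers reached 24.5 to 43.1 in T cells (5236 cells) and at most 2.01 in macrophages. In the conventional dendritic cells type 2 (cDC2, 668 cells), the 4 cDC2 markers reached 13.9 to 35.6, a range that overlapped with the 5.03 to 15.0 of resident macrophages, although cDC2 lay higher within each library. Macrophage markers reached 2.87 to 18.8 in cDC2, and in Aachen OM they exceeded the cDC2 markers (18.8 against 17.3). In monocytes (714 cells) the 8 macrophage markers summed to 19.9 to 46.2 and the 4 monocyte markers to 30.2 to 43.7. The macrophage markers were the higher in Aachen OM (46.2 against 31.6) and Bonn OM (39.2 against 35.8), and the lower in every other library.

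The classical chains and Cd74 were highest in resident macrophages, followed by Malat+_Macrophage, cDC2 and cDC1. B cells came lower, and for H2-Eb1 Prolif._cell (48.0) and neutrophils (47.4) lay above B_cell_1 (41.8). Cd74 reached 811 ± 62.8 in Macrophage_3, 713 ± 79.0 in Macrophage_2, 687 ± 22.3 in Macrophage_1 and 594 ± 57.8 in Isg+_Macrophage (n = 3 facilities each). It was 423 ± 25.3 in cDC2, 328 ± 34.9 in cDC1 and 266 ± 29.7 in B_cell_1. Macrophage_3 ranked first in each of the facilities for Cd74, H2-Aa, H2-Eb1, H2-DMa and H2-DMb1. Macrophage_2 overlapped in its facility range with Macrophage_3 and with Macrophage_1, whereas Macrophage_1 lay above Isg+_Macrophage, cDC2 above cDC1 and cDC1 above B_cell_1 in every facility. Across the 22 pairs of neighbours in the order of Cd74, 5 had facility ranges that did not overlap.

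H2-Aa, the alpha chain of I-A, was 215 ± 35.3 in Macrophage_3, 131 ± 25.1 in cDC2, 112 ± 14.9 in cDC1 and 57.8 ± 12.4 in B_cell_1. Its partner H2-Ab1 was 204 ± 50.9 in Macrophage_3 and 115 ± 25.6 in cDC2. H2-Eb1, the beta chain of I-E, was 221 ± 21.1 in Macrophage_3 and 118 ± 14.2 in cDC2. The level of the I-E alpha chain gene was not examined, so that these values do not show whether I-E is made. Its symbols H2-Ea and H2-Ea-ps stood only in the list of further pathway genes given below. The balance of the I-A chains moved with the facility: for 100 UMIs of H2-Aa, resident macrophages held 142 of H2-Ab1 in Aachen, 85.1 in Bonn and 74.4 in Hamburg, and B cells held 109, 68.6 and 48.8. The order of the facilities was the same in both classes.

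**Figure D1:**
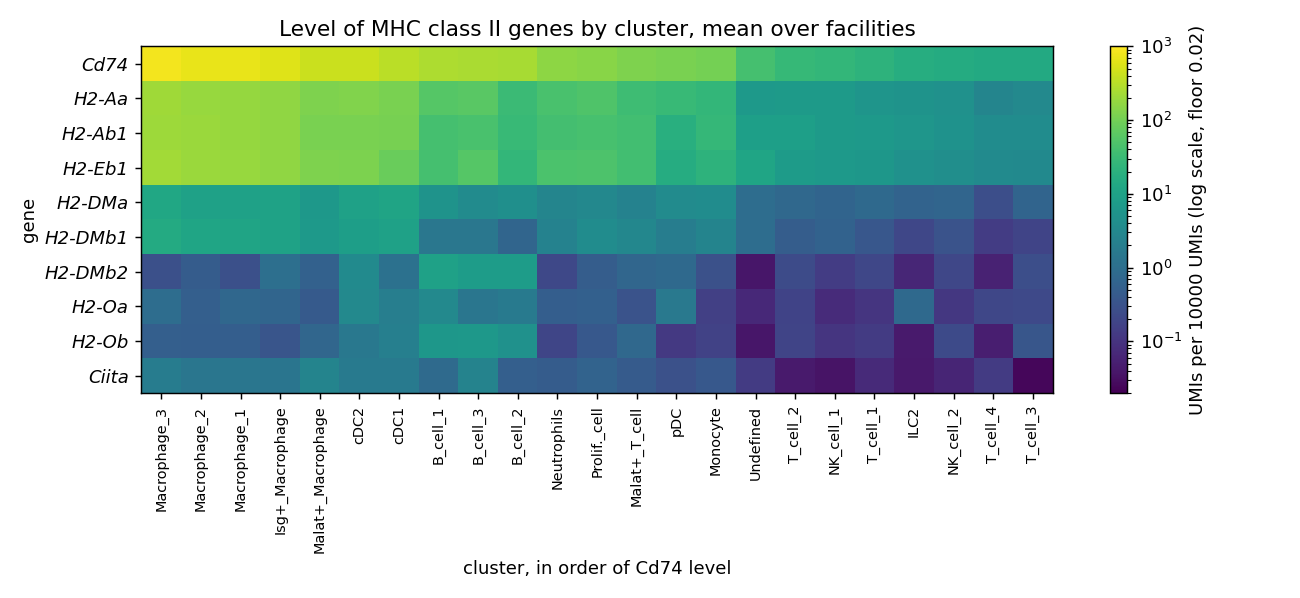
Mean level over the facilities of each of the 10 genes (rows) in each of the 23 clusters (columns, ordered by Cd74), in UMIs per 10000 on a log colour scale with a floor of 0.02. Macrophage clusters lead for Cd74 and the classical chains (Cd74 811 in Macrophage_3), whereas H2-DMb2 and H2-Ob are brightest in the B cell clusters.

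Monocytes stood below the antigen-presenting classes, with Cd74 at 134 in Aachen, 111 in Bonn and 69.0 in Hamburg. Plasmacytoid dendritic cells held 107 in Bonn and 116 in Hamburg, and only 9 such cells came from Aachen. Neutrophils reached 66.7, 230 and 182, with a UMI of Cd74 in 16%, 33.3% and 74.6% of the 25, 51 and 197 cells. Their mean of per-cell shares was 78.1 against 159 from summed UMIs, and after thinning to 500 UMIs a UMI of Cd74 was found in 16.7%, 25.5% and 52.8% of the cells. For 100 UMIs of Cd74, neutrophils held 22.3, 32.3 and 24.9 of H2-Aa in Aachen, Bonn and Hamburg. Resident macrophages held 22.4, 33.8 and 23.8, and monocytes 22.9, 30.6 and 20.5. The part of free RNA or of other cells in the neutrophil and monocyte levels was not tested.

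Over the 23 clusters, Ciita went with Cd74 and the classical chains (Pearson r = 0.94 with H2-Aa and with Cd74, 0.93 with H2-Ab1 and with H2-Eb1). Its r was 0.91 with H2-DMa, 0.86 with H2-DMb1, 0.66 with H2-Oa, 0.65 with H2-Ob and 0.58 with H2-DMb2. Its top cluster differed from that of Cd74. Ciita was highest in Malat+_Macrophage in each facility, at 0.876 in Aachen, 3.51 in Bonn and 3.69 in Hamburg. Cd74 in that cluster (428 ± 33.1) lay below all 4 clusters of resident macrophages. Macrophage_3 held 0.771, 2.86 and 1.97, cDC2 0.386, 2.82 and 1.84, and B_cell_1 0.223, 1.45 and 0.887 in Aachen, Bonn and Hamburg. The Aachen value was the lowest in each of these clusters. In B_cell_3, which was measured in Bonn (21 cells) and Hamburg (225 cells) with 1 cell in Aachen, Ciita was 2.41 and 2.76.

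The H2-DM beta chains divided between cell types. Resident macrophages held mostly H2-DMb1: of all H2-DM beta chain UMIs, H2-DMb2 made up 2.90% in Aachen (115 of 3971), 3.94% in Bonn (426 of 10811) and 2.68% in Hamburg (104 of 3879). B cells held mostly H2-DMb2, with shares of 81.1% (794 of 979), 91.8% (5899 of 6428) and 88.2% (3274 of 3711). cDC2 stood between, at 27.0%, 28.8% and 30.6%, and cDC1 at 10.7%, 9.40% and 11.2%. No facility of one class reached into the range of another of these 4 classes. Within the macrophage class, Isg+_Macrophage stood apart with 10.8% (14 of 130), 10.1% (49 of 484) and 6.64% (23 of 351), near the cDC1 range. Its H2-DMb2 level was 1.05 from summed UMIs and 0.715 as a mean of per-cell shares. By compartment it was 1.47 ± 0.622 in cortex, 0.361 ± 0.187 in OM and 1.10 ± 0.428 in IM. The part of other cells in this cluster's share was not tested.

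H2-DMb1 was 14.9 ± 1.20 in Macrophage_3, 11.2 ± 1.13 in Macrophage_1 and 8.73 ± 0.773 in cDC2. H2-DMb2 was 9.71 ± 1.29 in B_cell_1, 3.54 ± 0.433 in cDC2 and 1.12 ± 0.0565 in cDC1. In cDC2 both genes were found in the same cells, in 26.1% of the cells of Aachen, 64.7% of Bonn and 41.2% of Hamburg, where the product of the separate shares was 24.5%, 63.1% and 31.0%. This was not particular to cDC2. Both were found in 26.1%, 55.3% and 47.4% of cDC1 and in 7.49%, 22.6% and 21.9% of B cells, in the same order of facilities. Facilities differed in depth, and with each cell thinned to 500 UMIs H2-DMb1 was found in 34.5%, 31.5% and 27.8% and H2-DMb2 in 13.5%, 18.9% and 12.3% of cDC2. The alpha chain H2-DMa did not divide in this way: it was 12.8 ± 2.73 in Macrophage_3, 11.2 ± 2.58 in cDC1, 9.74 ± 2.35 in cDC2 and 5.24 ± 0.934 in B_cell_1, and no pair of neighbours in its order had facility ranges apart.

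**Figure D2:**
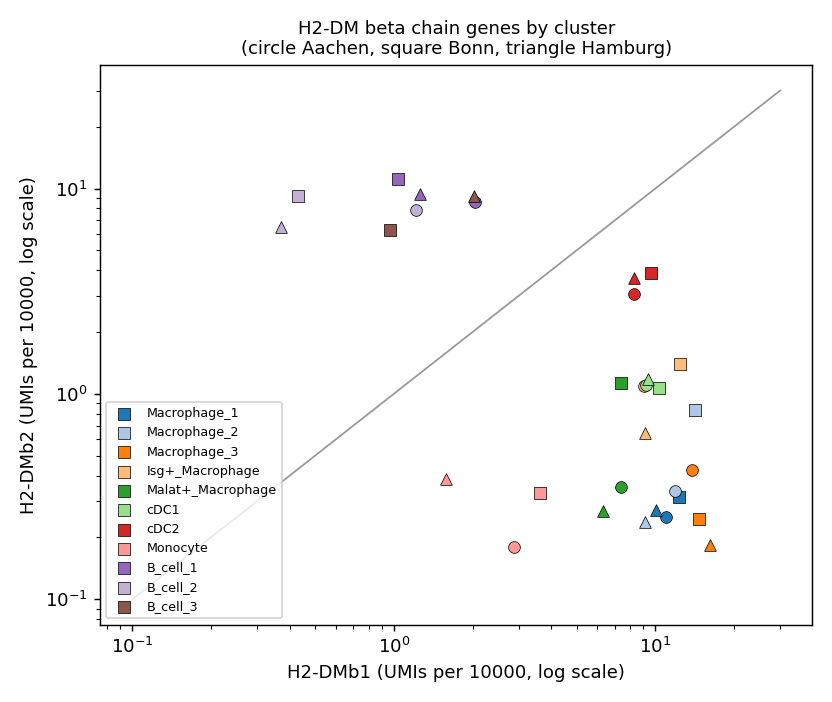
Level of H2-DMb2 against H2-DMb1 (both in UMIs per 10000, log axes) in 11 clusters, 1 point per cluster and facility; the line marks equal levels. B cell clusters lie above the line, macrophages, dendritic cells and monocytes below it, with cDC2 (3.54 for H2-DMb2) nearest to the line among the latter.

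The H2-O chains differed in their order, with B cells first for H2-Ob and B_cell_1 and cDC2 side by side for H2-Oa. H2-Ob, the beta chain, was 6.18 ± 1.23 in B_cell_1, 4.78 ± 1.23 in B_cell_2, 2.18 ± 0.302 in cDC1 and 1.55 ± 0.291 in cDC2, and no macrophage cluster exceeded 0.726. H2-Oa, the alpha chain, was 3.31 ± 0.698 in B_cell_1 and 3.26 ± 0.166 in cDC2, whose facility ranges overlapped, and 2.05 ± 0.378 in cDC1. It was 0.947 ± 0.0448 in Macrophage_3 and 0.736 ± 0.319 in Macrophage_1. Macrophages were thus low in both H2-O chains while they were high in H2-DMa and H2-DMb1.

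Lymphocytes other than B cells held class II UMIs at levels that differed between facilities. Cd74 in T cells was 56.0 in Aachen, 9.96 in Bonn and 3.90 in Hamburg. Within libraries it was 26.0 in cortex, 62.2 in OM and 71.3 in IM of Aachen, 10.8, 9.31 and 6.78 for Bonn, and 2.40, 7.37 and 3.63 for Hamburg. The 8 macrophage markers in the same T cells followed the same order of facilities, with 8.94, 19.3 and 23.0 in cortex, OM and IM of Aachen, 1.38, 1.39 and 1.20 for Bonn and 0.501, 1.09 and 0.634 for Hamburg. A UMI of Cd74 was found in 32.6% of T cells in Aachen, 23.6% in Bonn and 9.85% in Hamburg, and in 27.4%, 8.16% and 4.64% after thinning each cell to 500 UMIs. The 6 B cell markers in T cells were 0.487, 2.83 and 2.87 in cortex, OM and IM of Aachen, 2.75, 2.24 and 1.89 for Bonn and 0.342, 0.349 and 0.787 for Hamburg. H2-DMb2 made up 25.2%, 72.2% and 52.6% of the H2-DM beta chain UMIs of T cells in Aachen, Bonn and Hamburg. The part of free RNA or of other cells in these levels was not tested.

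**Figure D3:**
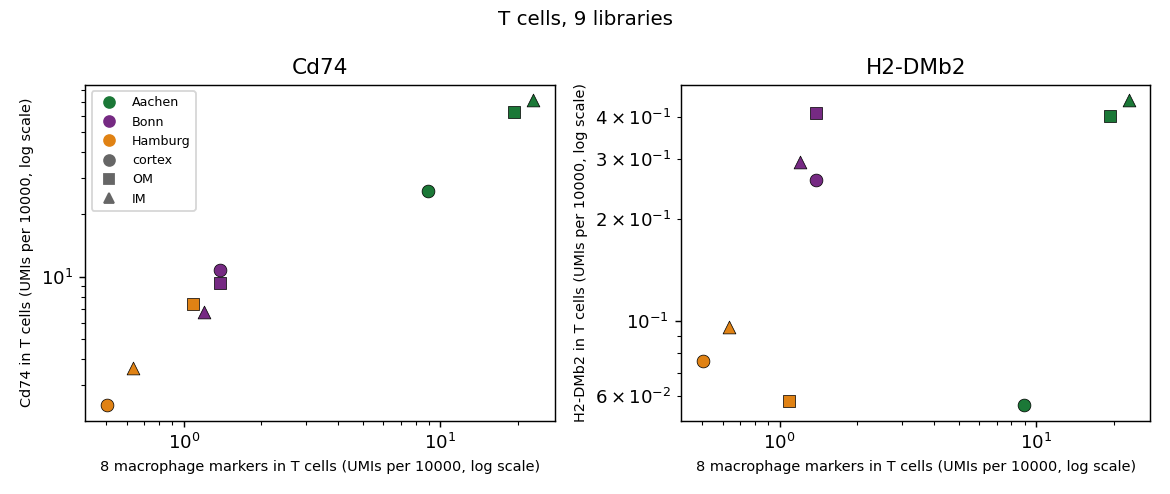
Level of Cd74 (left) and H2-DMb2 (right) in T cells against the summed level of 8 macrophage markers in the same T cells, all in UMIs per 10000 on log axes; each point is 1 of 9 libraries, coloured by facility and shaped by compartment. Cd74 is highest where macrophage markers are highest (71.3 and 23.0 in Aachen IM), while the lowest H2-DMb2 point is Aachen cortex.

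Next, the compartments were compared within each class, to ask whether class II genes differ with the position of the cell. Counts were summed per class and library and compared by edgeR's quasi-likelihood test with the facility as block, with p-values adjusted over all genes tested by Benjamini-Hochberg and a threshold of 0.05. In cDC1 the smallest library held 7 cells, and no test was made.

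In resident macrophages, 1 of the 10 members differed between medulla (the mean of OM and IM) and cortex, where 1.24% of all 8687 genes did. H2-Oa was 0.330 in cortex, 0.819 in OM and 0.486 in IM of Aachen. In Bonn it was 0.644, 0.955 and 1.0, and in Hamburg 0.428, 0.718 and 0.576. Both medullary compartments were above cortex in each facility, and the OM range lay above the cortex range. The OM range of Cd74 in resident macrophages also lay above its cortex range (729 to 770 against 598 to 718). How many of all genes had ranges apart in this way was not counted. The UMIs behind these levels numbered 25, 147 and 33 for Aachen, 190, 87 and 376 for Bonn, and 41, 118 and 57 for Hamburg. The ranges of medulla and cortex overlapped when OM and IM were pooled. H2-Oa rose by 0.74 ± 0.17 (SE) on the log2 scale from cortex to medulla, or 1.67-fold (edgeR, adjusted p = 0.0447), and by 0.87 ± 0.19 from cortex to OM (edgeR, adjusted p = 0.0454). Its difference of IM against cortex was 0.61 ± 0.19 (edgeR, adjusted p = 0.319), and that of OM against IM 0.26 ± 0.18.

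The call of H2-Oa was near the threshold and was not stable. In 20 alternative fits its medulla difference stayed above 0, from 0.58 to 0.86, but passed the threshold in 7, with adjusted p-values from 0.000733 to 1.0; DESeq2 gave 0.243. The call was lost without Bonn or Hamburg, and on leaving out any of 7 of the 9 libraries, with adjusted p-values of 0.0683 without Aachen OM, 0.171 without Aachen cortex, 0.274 without Bonn IM, 0.276 without Bonn cortex, 0.111 without Hamburg IM, 0.118 without Hamburg OM and 0.119 without Hamburg cortex. Without a facility block the adjusted p was 1.0. BC051537, which overlaps H2-Oa on the other strand, had 1 UMI in all macrophages.

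Markers of some other cells moved with this difference. The 4 cDC2 markers summed to 5.03, 9.56 and 7.24 in macrophages of the cortex of Aachen, Bonn and Hamburg, to 9.75, 15.0 and 10.7 in OM and to 5.25, 15.0 and 11 in IM, and all 4 were detected in every library. cDC2 held H2-Oa at 3.26, above the macrophages. B cells held it at 3.12, but the 6 B cell markers in macrophages were lower in both medullary compartments than in cortex in Bonn and Hamburg. They summed to 1.12, 5.89 and 1.07 in cortex of Aachen, Bonn and Hamburg, to 1.34, 1.54 and 0.829 in OM and to 1.14, 2.16 and 0.593 in IM. The 4 tubular markers ranged from 0.240 to 0.317 in cortical and from 0.634 to 7.77 in medullary macrophages. The make-up of the class also changed: Macrophage_3, the resident macrophage cluster with the highest mean of H2-Oa over facilities (but below Isg+_Macrophage in Aachen and Macrophage_1 in Bonn), was 0%, 7.05% and 0% of cortical macrophages, 44.7%, 42.9% and 23.0% of OM and 1.17%, 43.1% and 15.4% of IM macrophages in Aachen, Bonn and Hamburg. Their part in the result was not tested beyond the single clusters that follow.

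Within Macrophage_1, H2-Oa was 0.266, 0.398 and 0.399 in cortex of Aachen, Bonn and Hamburg, 0.695, 1.93 and 0.683 in OM, and 0.410, 1.07 and 0.730 in IM. No medullary library overlapped with cortex, and the share of all genes with such ranges was not counted. The cortical values rested on 12, 4 and 22 UMIs. OM against cortex gave 1.25 ± 0.30 on the log2 scale (edgeR, adjusted p = 0.0381; 0.473% of 6978 genes passed), and medulla against cortex 1.06 ± 0.27 (edgeR, adjusted p = 0.0744). The OM call was lost in 9 of 13 alternative fits, on leaving out any facility among them. In Macrophage_2 the medulla difference was 0.02 ± 0.23 (edgeR, adjusted p = 0.999). H2-DMb2 in Macrophage_1 had an estimate of 1.23 ± 0.39 for medulla (edgeR, adjusted p = 0.225). Over the 7 clusters that could be tested and all 4 contrasts, the OM difference in Macrophage_1 was the only call of a member, where 0.106% of all gene tests passed.

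**Figure D4:**
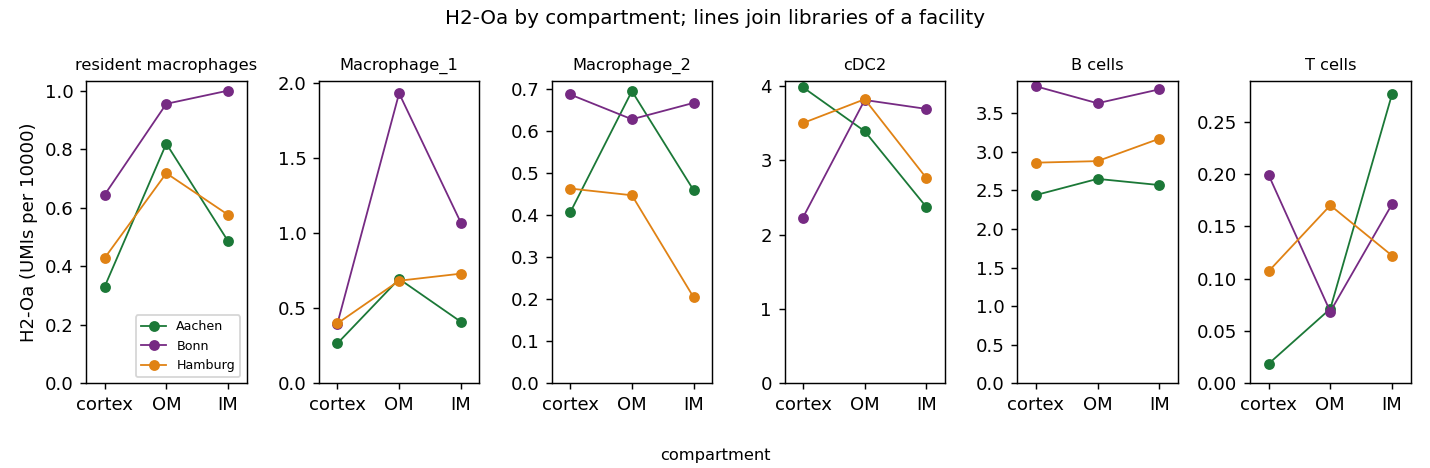
Level of H2-Oa (UMIs per 10000, each panel with its own axis from 0) in cortex, OM and IM for 6 classes or clusters; points are libraries and lines join those of a facility. Resident macrophages and Macrophage_1 have both medullary points above cortex in each facility (0.330 to 0.819 from cortex to OM in Aachen), while B cells stay near 2.44 to 3.85.

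The other 9 members did not pass the test in resident macrophages. Cd74 was 718, 706 and 598 in cortex, 770, 734 and 729 in OM and 774, 686 and 706 in IM of Aachen, Bonn and Hamburg, a medulla difference of 0.13 ± 0.08 (edgeR, adjusted p = 0.664). H2-Aa, H2-Ab1 and H2-Eb1 differed by 0.09 ± 0.10, 0.08 ± 0.09 and 0.12 ± 0.09, Ciita by 0.20 ± 0.14, H2-DMa by 0.22 ± 0.12, H2-DMb1 by 0.18 ± 0.12 and H2-Ob by 0.07 ± 0.17. The median of the members was 0.13, against 0.01 for all genes tested. In OM against cortex 1 member was called, where 0.852% of genes were. No member was called in IM against cortex, where 0.196% of genes passed, or in OM against IM, where 0% passed. An unadjusted p under 0.05 was held by 1 member and 623 of all 8687 genes in IM against cortex. In OM against IM, 0 members and 267 genes held one.

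H2-DMb2 had a lower estimate in medullary macrophages, -0.65 ± 0.31 (edgeR, adjusted p = 0.503), which rested on 1 library. It was 0.926 in the cortex of Bonn and between 0.187 and 0.399 in the other 8 libraries. In the Bonn cortex library 28.9% of the macrophages (156 of 539) were of mixed type, with at least 2 UMIs of T cell or of B cell markers, against 1.54% to 13.7% elsewhere, and the 6 B cell markers summed to 5.89, against 0.593 to 2.16. Without that library the difference was 0.40 (edgeR, adjusted p = 0.833), and without cells of mixed type -0.25 (edgeR, adjusted p = 0.846).

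In cDC2 no member was called. The background was 0.304% of 4935 genes for medulla, 0.101% for OM and 0.182% for IM against cortex, and 0.162% for OM against IM. At an unadjusted p under 0.05, 1 member stood out in each of medulla and OM against cortex and 0 in the other contrasts. H2-DMb2 was 1.65, 2.26 and 4.38 in cortex, 3.39, 3.97 and 3.86 in OM and 3.6, 5.20 and 2.88 in IM of Aachen, Bonn and Hamburg. Both medullary values were above cortex in Aachen and Bonn and below it in Hamburg. Its estimate was 0.51 ± 0.24 (edgeR, adjusted p = 0.972). H2-Oa differed by 0.22 ± 0.20, and Cd74 by 0.07 ± 0.08.

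In B cells the members were level over the kidney. Their medulla differences ran from -0.09 to 0.05 on the log2 scale with standard errors of 0.06 to 0.14. H2-Oa was 2.44 to 2.65 in Aachen, 3.63 to 3.85 in Bonn and 2.86 to 3.17 in Hamburg, so that facilities differed by more than compartments. No member was called by edgeR, with backgrounds of 0.0898%, 0.0786%, 0.0673% and 0.0673% of 8911 genes for medulla, OM and IM against cortex and OM against IM. In any contrast 0 members had an unadjusted p under 0.05. Of all genes, 294, 382, 193 and 348 had one, in the same order.

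In monocytes 9 members could be tested, H2-Oa being too low, and none was called. The backgrounds were 0.332%, 0.332%, 0.249% and 0.133% of 6029 genes for medulla, OM and IM against cortex and OM against IM. The estimates for medulla ran from -0.24 for H2-DMb1 to 0.85 for H2-Ob, with a median of -0.08. At an unadjusted p under 0.05 there were 0 members in medulla and OM against cortex, 2 in IM against cortex and 3 in OM against IM. Of all 6029 genes, 228, 221, 204 and 172 passed this level in the same order.

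In T cells all 10 members had estimates above 0 in medulla against cortex, with a median of 0.62 against 0.00 for all 8957 genes, and none was called. The backgrounds were 0.0335%, 0.0335%, 0.0558% and 0% of genes for medulla, OM and IM against cortex and OM against IM. In the same order, 6, 7, 1 and 1 members had an unadjusted p under 0.05. Of all 8957 genes, 514, 514, 372 and 308 had one. Cd74 differed by 0.66 ± 0.26 (edgeR, adjusted p = 0.805) and H2-Aa by 0.63 ± 0.27. Without Bonn 4 members were called, Cd74 with 1.30 on the log2 scale. The macrophage markers in T cells, given above, were higher in OM and IM than in cortex in Aachen and Hamburg, as was Cd74, whereas in Bonn Cd74 and the B cell markers were highest in cortex and the macrophage markers lay between 1.20 and 1.39. Their part in the estimates was not tested.

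**Figure D5:**
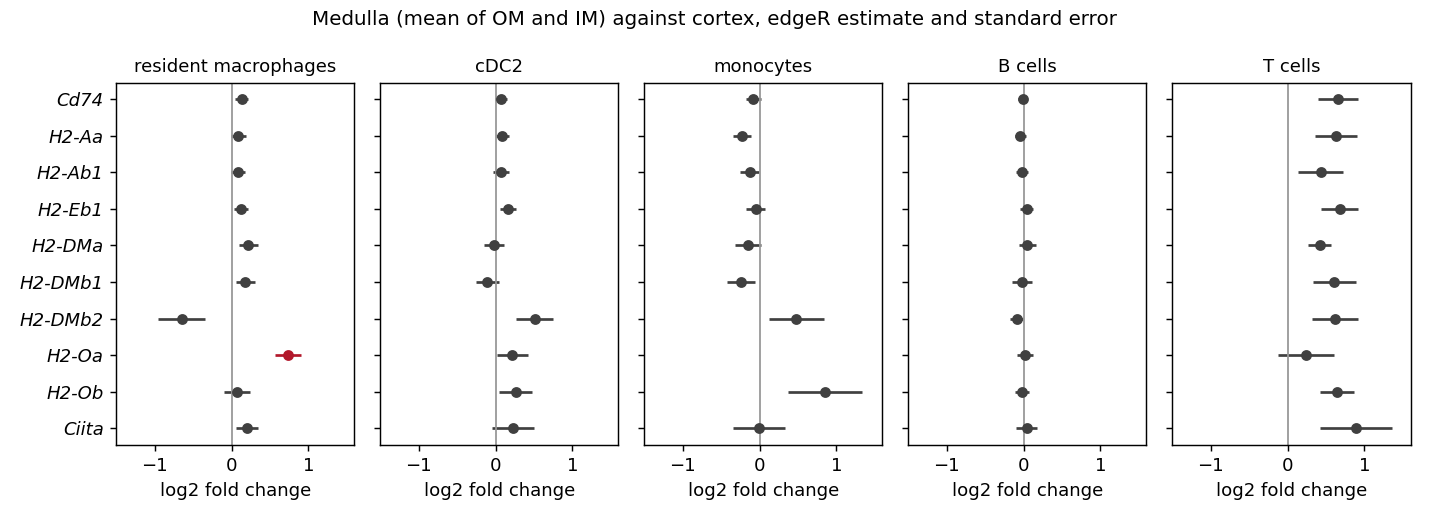
Log2 fold change of each of the 10 genes in medulla against cortex in 5 classes; points are edgeR estimates, bars standard errors, and red marks an adjusted p under 0.05. H2-Oa in resident macrophages (0.74) is the only red point; B cells lie at 0 and T cells to the right of it (median 0.62).

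Whether the medulla differences themselves differed between classes was tested as an interaction. Against B cells, the H2-Oa difference was 0.71 lower than in macrophages (-0.71 ± 0.18, edgeR, adjusted p = 0.0191), and it was the 1 member of 10 called, where 1.18% of 10099 genes passed. This call held in 8 of 14 alternative fits. Against cDC2, H2-DMb2 was called (1.39 ± 0.25, edgeR, adjusted p = 1.33e-05), where 0.938% of 9064 genes passed, but the difference was -0.12 (edgeR, adjusted p = 1.0) without the Bonn cortex library. Against T cells no member was called, where 0.440% of 10004 genes passed. H2-Oa did not pass against cDC2 (-0.39 ± 0.22, edgeR, adjusted p = 0.877) or T cells (-0.55 ± 0.37, edgeR, adjusted p = 0.781).

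A list of 39 further gene symbols of the pathway, 35 of them in the table, was examined beside the members. It held H2-Ea, H2-Ea-ps and H2-Eb2, regulators such as Rfx5 and Irf8, proteases such as Ctss, the ubiquitin ligase March1, costimulatory genes and class I genes. Of the list, 34 were tested in resident macrophages, 33 in B cells, 30 in T cells and 29 each in cDC2 and monocytes. In every class and contrast 0 rose and 0 fell at the threshold in edgeR's test. The median medulla difference of the list was 0.00 in macrophages and 0.03 in B cells.

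Over the 23 clusters, the genes outside the members with the pattern most like the mean of the members were Plekho1 (Pearson r = 0.95), Fgd2 (0.94), Cd83 (0.93), Ly86 (0.93) and March1 (0.92), among 2965 genes with at least 0.5 UMIs per 10000. For Ciita alone they were Cd83 (0.95), Plekho1 (0.92), March1 (0.92), Fgd2 (0.89) and Rasgef1b (0.89). Against the mean of the members, their own correlations ranged from 0.66 for H2-DMb2 to 0.98 for H2-Aa and Cd74. That mean contains each member, which raises these values, so they cannot be set beside those of other genes. These correlations describe clusters that share libraries and depth.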

How the data were processed

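The authors aligned reads to mm10 with 10x Genomics Cell Ranger, and in Seurat dropped cells outside 200 to 4000 genes or above 20% mitochondrial content. They deposited raw counts per cell and gene with cluster, compartment and facility. Hamburg values were fractional, so the deposited table was treated as holding estimated counts, and sums were rounded. The members and lists were chosen with earlier results of these data known.

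Counts were summed per class or cluster and library where every library held at least 10 cells (class) or 20 cells (cluster), filtered with filterByExpr on the design matrix, scaled by TMM and tested with glmQLFit and glmQLFTest (edgeR 4.0.16, R 4.3.3). The filter was first run by compartment group and was changed, after the calls of the members had been seen, to match the processing of the whole series; both are given. Standard errors of the edgeR fits were derived from the test, as the absolute log2 fold change divided by the square root of its F statistic. A cell counted as holding a UMI at a value of 0.5 or more. Alternatives were DESeq2 1.42.0, no TMM, no filter, no block, facilities or libraries left out, thinning to 500 UMIs and removal of cells of mixed type. The facility was a block in every main fit, because the libraries of a facility shared site and kit. All 10 members were named, whatever their result. The fit was tested on simulated counts.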

Additional observations from a re-analysis of the deposited data

Results flagged for a closer look

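The medulla difference of H2-Oa was 0.71 lower on the log2 scale in B cells than in resident macrophages (-0.71), a difference between classes by the interaction test of edgeR (adjusted p = 0.0191); it stayed between -0.81 and -0.53 in 14 alternative fits and passed the threshold in 8. H2-DMb2 differed between cDC2 and resident macrophages by 1.39 in the same test (adjusted p = 1.33e-05), and by -0.12 without the Bonn cortex library, in which 28.9% of the macrophages were of mixed type.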

How the results depend on the processing

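The direction of H2-Oa in resident macrophages stayed the same in all 20 alternatives (0.58 to 0.86 for medulla, 0.62 to 1.15 for OM against cortex), but each call held in 7. The number of members called there, 1 in each contrast, was 0 with DESeq2, with Malat+_Macrophage added, with cells thinned to 500 UMIs and with no replicate block, and 2 with no low count filter, where H2-DMb2 was added. Leaving out a facility gave 0 to 1, and leaving out 1 library 0 to 1: 0 without Aachen OM, any cortex library, Hamburg OM or Hamburg IM in both contrasts, without Bonn IM for medulla and without Bonn OM for OM. The low count filter by group, which was run first, gave the same calls (adjusted p = 0.0434 and 0.0443). The single libraries and the interaction alternatives were chosen after seeing the data.

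H2-DMb2 in macrophages turned from -0.65 to 0.39 without Bonn and to 0.40 without the Bonn cortex library, and its difference between cDC2 and macrophages to -0.15 and -0.12; the difference of H2-Oa between T cells and macrophages turned to 0.23 and 0.23. The cause was not tested. Over the facilities left out these values ranged from -1.09 to 0.39, from -0.15 to 2.28 and from -1.16 to 0.23. In cDC2, 1 member was called for medulla and 1 for IM without the Hamburg cortex library. In T cells, where 0 were called, thinning gave 1 for medulla and 4 for OM, no low count filter 3, 4 and, for OM against IM, 2, and removal of mixed cells 3 for OM. Without Bonn, 4, 4 and 3 were called for medulla, OM and IM, as without the Bonn cortex library, and facility leave-outs ranged from 0 to 4 and from 0 to 3.

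The members whose medulla difference differed from macrophages ranged, over facilities left out, from 0 to 2 (B cells), 0 to 4 (T cells) and 0 to 1 (cDC2). For B cells 2 were called without Aachen cortex and 0 without Bonn IM, Bonn OM, Bonn cortex or Hamburg OM. For T cells 4 were called without mixed cells or Bonn cortex and 1 without Aachen IM, Aachen cortex or Hamburg cortex. For cDC2 0 were called without Bonn IM or Bonn cortex. Signs changed in 6 of 200 macrophage values, 18 of 189 in cDC2, 25 of 155 in monocytes, 44 of 190 in B cells and 4 of 175 in T cells. With a mean over cells, 11 cluster levels moved by more than 1 SD and 219 did not; of the shares of cells with a UMI, 47 moved under thinning and 13 did not. The alternatives for cDC1 were not run, since its smallest library held 7 cells. The labels give no replicate numbers; the facility block of the main fits was dropped under no replicate block. Depth limits the low genes, with H2-Oa resting on 25 UMIs in the Aachen cortex.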

Other observations

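Type 2 innate lymphoid cells (ILC2) held H2-Oa above the level of T cells in each facility. H2-Oa was 0.749 in Aachen, 0.888 in Bonn and 0.792 in Hamburg, on 15, 27 and 44 UMIs, against 0.154, 0.184 and 0.126 in T cells of the same facilities. Cd74 was 48.3, 0.724 and 2.71 in these ILC2, and H2-Aa 14.8, 0.165 and 0.648. Both were thus low in Bonn and Hamburg and not in Aachen. Ciita, H2-DMb1, H2-DMb2 and H2-Ob lay below H2-Oa in ILC2 of each facility. After thinning to 500 UMIs, 5.06%, 11.7% and 2.98% of ILC2 held a UMI of H2-Oa, against 0.504%, 0.623% and 0.478% of T cells. The ILC2 ranged from 77 cells in Bonn to 179 in Aachen, and no test was made.

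In NK_cell_1, H2-Oa was 0 in Aachen, 0.0919 in Bonn and 0.132 in Hamburg.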
